A study of Mus musculus with 24 samples.

Results

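Of 60804 transcript probes on a mouse lncRNA and mRNA array, 112 (0.184%) were detected in liver and in kidney and in none of the other 3 tissues examined. Detection was read from the scanner software's flag for a signal well above background. A member had to carry that flag on all 3 liver arrays and all 3 kidney arrays, and on none of the 9 arrays of brain, heart and testis. The tissues came from 8-week-old male ICR mice. The cell lines played no part in the choice of members. F9 derives from an embryonal carcinoma, while GC-1 and GC-2 are immortalized germ cell lines made from spermatogonia and from spermatocytes. Each tissue and each line had 3 arrays labeled with Cy3, described as biological replicates, and each line stands for 1 established culture without a germ cell niche. Levels are log2 intensities on which 0 is the 75th percentile of the array.

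Liver and kidney are both epithelial organs of metabolism and excretion. Hepatocytes of the liver and proximal tubule cells of the kidney share enzymes of gluconeogenesis, amino acid breakdown, peroxisomal oxidation and detoxification, carriers of organic anions and cations, and transcription factors of the hepatocyte nuclear factor families. This combination is not characteristic of brain, heart or testis. In whole tissue RNA, fewer cells of a type and less RNA per cell cannot be told apart.

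The deposited files give probe numbers without gene symbols, and the study's supplementary tables, as far as they were read here, identified 3478 probes (5.72%). None of the 112 members was among these 3478. The study's lists of tissue-specific transcripts asked for detection in a single tissue, so transcripts detected in both liver and kidney would not be looked for there. Members are therefore given by probe number, and whether a member is an lncRNA or an mRNA is not known for 111 of them. The remaining member, mouselincRNA0776+_P1, carries the word lincRNA in its design name, and was chosen for mention on that ground after its values were seen. It read -0.36, -0.23 and -0.19 in liver and -0.88, -0.52 and -0.76 in kidney. These levels were among the lower ones of the set and did not overlap between the organs, but the difference of 0.46 did not pass the test (standard error 0.24, Benjamini-Hochberg adjusted p = 0.128 by limma). On the 9 line arrays it was never well above background.

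The tissue labels could hardly be checked by marker genes. Of 46 marker genes in 11 lists for the cell types of these tissues and lines, 4 had an identified probe. No gene had one in the lists for proximal tubule, distal tubule and collecting duct, Kupffer cell or macrophage, and red blood cell. The same held for endothelium, cardiomyocyte, germ cell and fibroblast. A transcript listed under Apoa1, whose gene encodes an apolipoprotein of hepatocytes, was well above background on the 3 liver arrays at 1.19 ± 0.51 (SD, n = 3) and nowhere else. A transcript listed under Snap25, a neuronal gene, was at 1.65 ± 0.25 in brain and well above background in no other group. A transcript listed under Gap43, also a neuronal gene, was at 7.31 ± 0.07 in brain and was well above background in F9 (5.16 ± 0.45), GC-1 (-1.78 ± 0.17) and GC-2 (0.99 ± 0.66) and on 2 heart arrays, but on no liver or kidney array. The study names this transcript as the heart lncRNA of its qRT-PCR. Zfp42, a marker of embryonal carcinoma cells, read 4.65 ± 0.39 in F9 and was also well above background in testis, at -1.61 ± 0.26 (all SD, n = 3).

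Depth on arrays is brightness, and liver was the dimmest tissue. Between 18257 and 21349 probes per array were well above background in liver, against 25978 to 27930 in kidney and 25427 to 37393 on the arrays of brain, heart and testis. The lowest signal that earned the flag lay at a log2 level of -1.61 to -0.98 on the liver arrays, highest on replicate 1, and -2.93 to -2.56 on the kidney arrays. In brain, heart and testis it lay between -4.87 and -2.33. Liver replicate 1 was scanned apart from the other arrays, and the 95th percentile of its negative control spots was an intensity of 13.6, against 2.97 to 4.97 elsewhere. Without liver replicate 1 the rule gave 124 members, which included all 112.

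The liver levels of the 112 members ran from -0.63 to 11.34 with a median of 3.29, and the kidney levels from -1.94 to 9.86 with a median of 1.54 (means of 3 arrays). Ranked among all probes, the median member stood at percentile 90.1 in liver and 83.5 in kidney. In brain, heart and testis, where the rule asked for no signal well above background, the medians were -5.51, -4.70 and -6.50. The 6 liver and kidney arrays lay above the 9 other tissue arrays for each of the 112 members, which follows in large part from the rule. With signals of brain, heart and testis set to the lowest one well above background on their array, the liver level was at least 4.20-fold above each of these tissues for every member and at least 63.6-fold at the median. For kidney these bounds were 1.69-fold and 18.9-fold. The bounds, too, follow in part from the rule. After scaling, the lowest signal well above background lay at a higher level in liver than in kidney, as given above. The part of this in these bounds was not tested.

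**Figure D1:**
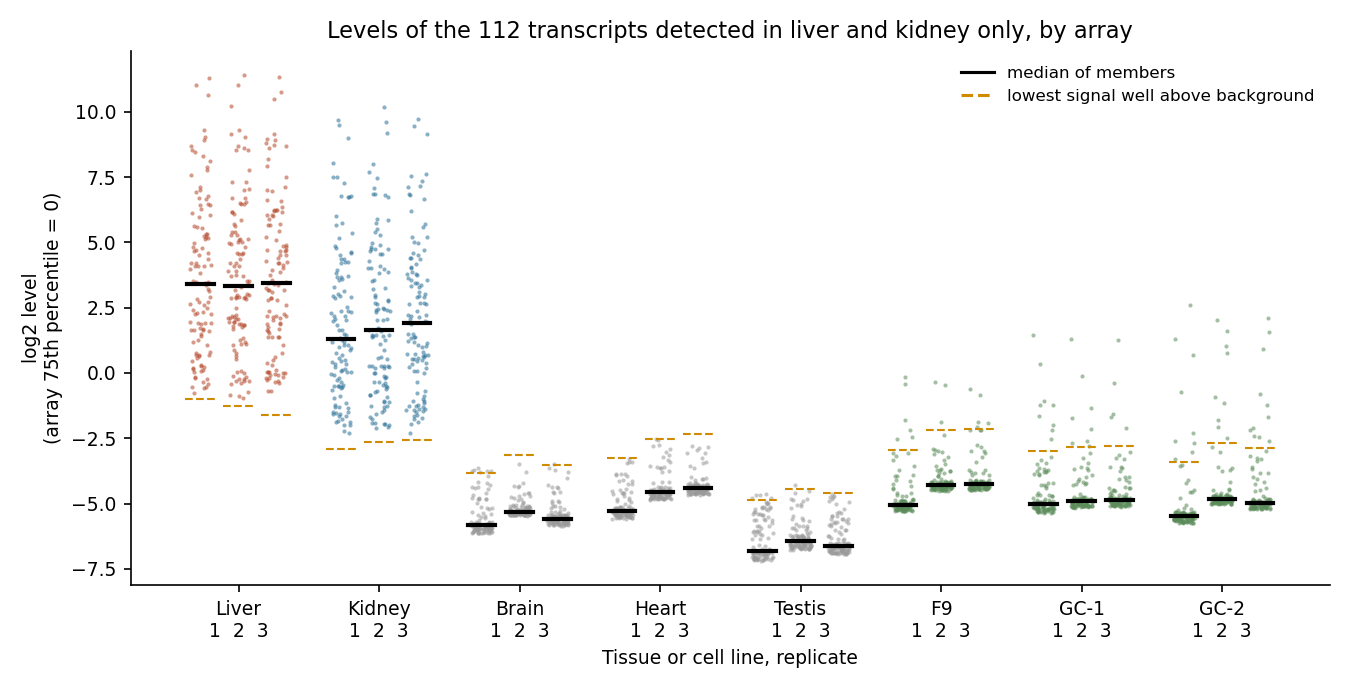
Log2 level of each of the 112 members (points) on each of the 24 arrays, by tissue or cell line and replicate, with the median of the members (black line) and the lowest signal well above background on the array (dashed line). The members lie above the dashed line in liver and kidney by the rule, their group means reach 11.34 and 9.86 there, and most lie below it in F9, GC-1 and GC-2, which the rule did not use.

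Several members sat close to the edge of the rule. For 11 members, at least 1 array of brain, heart or testis read at or above the lowest signal that earned the flag on that array, without earning it. By a less strict flag of the software, for a positive signal that differs significantly from the local background, 28 of the 112 were detected on all 3 arrays of brain, heart or testis, 22 of them in testis, and 21 were positive on none of the 9 arrays. The lowest member levels were -0.96 on a liver array and -2.29 on a kidney array. Just outside the rule, 34 probes were detected in both organs and on 1 of the 9 other arrays, which was testis replicate 1 for 14 of them and brain replicate 1 for 7. That array exceeded its lowest signal well above background by 0.15 to 2.22, with a median of 0.54. A further 28 probes missed 1 of the 6 liver and kidney arrays, and 12 of these missed liver replicate 1.

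Most of what liver and kidney expressed was shared more widely. Of 15469 probes detected in both organs, 14538 (94.0%) were also well above background on all 9 arrays of brain, heart and testis, and the 112 members were 0.724%. Among the 10 pairs of tissues, detection in exactly that pair was found for 9 probes in heart and liver, 20 in brain and liver, 59 in liver and testis, 33 in heart and kidney, 79 in brain and kidney and 143 in kidney and testis. Liver therefore shared more transcripts exclusively with kidney than with any of the other 3 tissues, while kidney shared more with testis. Brain and testis alone shared 799. The pairs differ in the brightness of their arrays, as given above, whose part in these counts was not tested, and no test was made between pairs. As a share of the probes detected in both tissues, the liver and kidney pair was at 0.724%, kidney and testis at 0.647% and brain and testis at 3.20%.

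**Figure D2:**
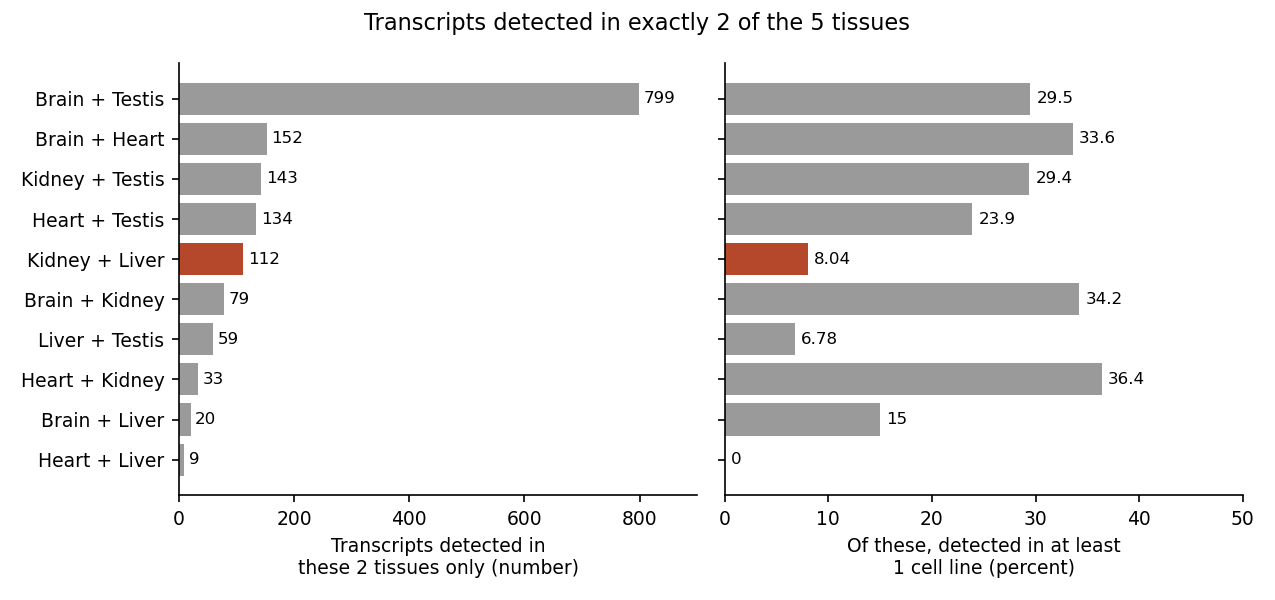
Number of transcripts detected in exactly the 2 tissues named and on no array of the other 3 (left), and the percentage of them detected on all 3 arrays of at least 1 cell line (right). The pair of kidney and liver, in color, holds 112 transcripts, of which 8.04% were detected in a line, and the pairs of brain, heart, kidney and testis without liver reach 23.9% to 36.4%.

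The levels of the 112 members differed widely between the organs. In a limma fit of the 6 liver and kidney arrays with Benjamini-Hochberg adjustment over all 60804 probes, 62 members (55.4%) were higher in liver and 20 (17.9%) higher in kidney at an adjusted p of 0.05 or less. Over all probes these calls were made for 48.0% and 11.5%, and over the 15469 probes detected in both organs for 22.1% and 17.0%. At least 5-fold differences were called for 42 members toward liver and 6 toward kidney, where the shares over all probes were 4.62% and 3.41% and over the probes detected in both 5.40% and 2.96%. Differences of at least 100-fold were called for 9 and 2 members, against 0.571% and 0.314% over all probes and 0.601% and 0.136% over those detected in both. The median of liver minus kidney was 1.39 over the members, 0.93 over all probes and 0.08 over the probes detected in both. After scaling, the lowest level that earned the flag was higher in liver than in kidney, as given above. The part of this in the split was not tested. The split and the shares over all probes depended on scaling. Without scaling between arrays, 41 members (36.6%) were higher in liver and 28 (25%) higher in kidney, against 3.54% and 25.6% over all probes. The liver side then made up 59.4% of the members' calls instead of 75.6%. At least 5-fold apart were 27 toward liver and 16 toward kidney. The median was 0.31 over the members and -0.16 over all probes. With quantile normalization, 55 members (49.1%) were higher in liver and 18 (16.1%) in kidney, against 7.43% and 10.5% over all probes.

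All 3 liver arrays lay above all 3 kidney arrays for 63 members (49.9% over all probes and 28.6% over the probes detected in both), and below them for 21 (13.8% and 23.2%). The arrays of the organs overlapped for 28. Within the slide that held replicate 1 of both organs, 80 of the 112 members read higher in liver, as did 67.8% of all probes and 51.3% of those detected in both. Within the slide that held the others it was 82 members, 72.1% of all probes and 54.7% of those detected in both.

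The largest difference toward liver belonged to ASMM10P036723. Its liver arrays read 11.30, 11.40 and 11.31 and its kidney arrays -0.20, 0.02 and 0.21. The probe was thus close to the top of the liver arrays, at percentile 99.8, and near the 75th percentile in kidney. The difference was 11.33 (standard error 0.24, Benjamini-Hochberg adjusted p = 9.55e-08 by limma), which is a 2574-fold difference in intensity. On the line arrays it lay between -5.52 and -4.23 and was never well above background.

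ASMM10P007737 followed with 10.64, 10.23 and 10.47 in liver and -0.51, -0.74 and -1.26 in kidney. The organs were far apart on every array, by 11.28 (standard error 0.29, Benjamini-Hochberg adjusted p = 1.53e-07 by limma).

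Toward kidney, the largest difference was that of ASMM10P005853. It read 9.69, 10.16 and 9.73 in kidney and -0.55, -0.29 and -0.70 in liver. It was the brightest member in kidney and among the dimmest in liver, 10.38 apart on the log2 scale or 1331-fold (standard error 0.26, Benjamini-Hochberg adjusted p = 1.53e-07 by limma). ASMM10P030593 read 9.47, 9.60 and 9.47 in kidney and 1.64, 1.10 and 2.58 in liver. Its liver arrays varied more than its kidney arrays, and the organs did not overlap, with 214-fold more signal in kidney (standard error 0.38 on the log2 scale, Benjamini-Hochberg adjusted p = 3.45e-06 by limma). These 4 kept their direction and their call in all alternatives that were run.

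**Figure D3:**
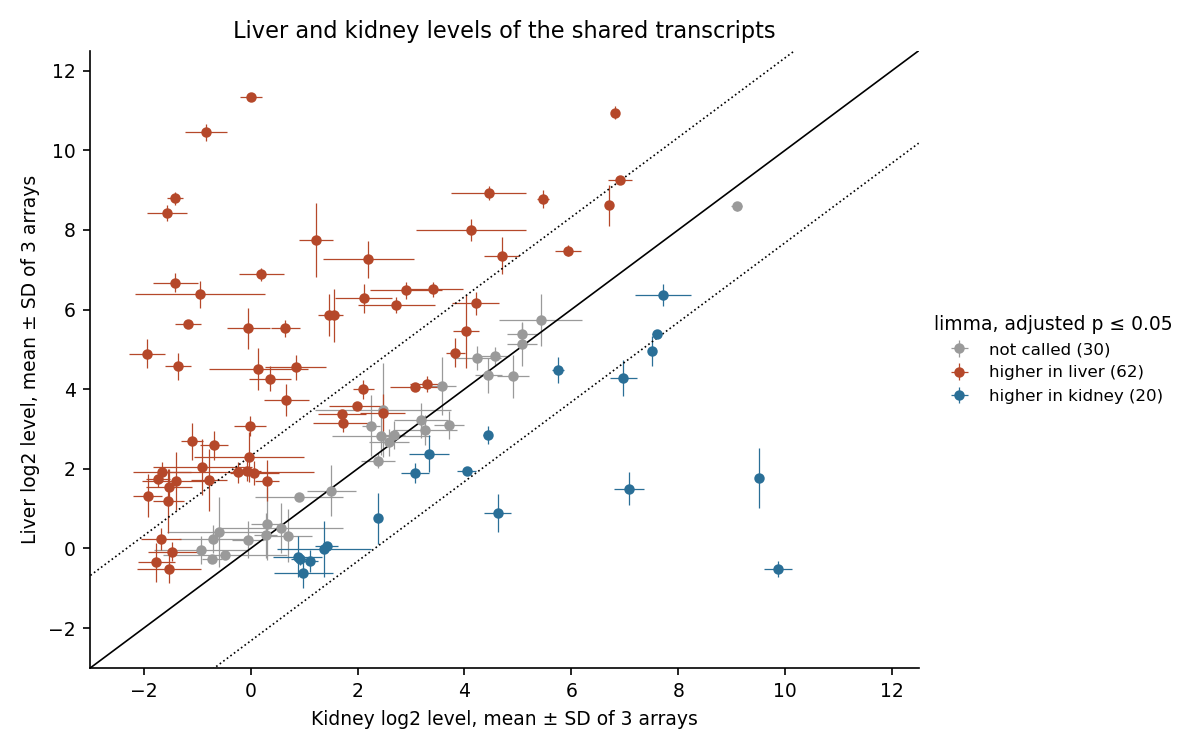
Mean liver level against mean kidney level of each member, on the log2 scale, with bars of 1 SD over 3 arrays and colors for the limma call at an adjusted p of 0.05 or less. The solid line marks equal levels and the dotted lines a 5-fold difference; 42 called members lie beyond the dotted line on the liver side and 6 beyond that on the kidney side.

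Members called toward liver had a median level of 4.56 in liver and 0.25 in kidney, and those called toward kidney 1.64 in liver and 4.24 in kidney. Some members were close to the edge of detection in the organ with less signal. Of the 62 called toward liver, 4 had a kidney mean within 1 log2 unit of the mean of the lowest kidney signals well above background, and of the 20 called toward kidney, 3 had such a liver mean, ASMM10P005853 among them. The 30 members without a call differed by -0.60 to 1.01, with standard errors of 0.23 to 0.74, and 28 of them differed by less than 2-fold. Their median levels were 2.83 in liver and 2.46 in kidney. A missed threshold does not show that these levels were equal.

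Strong signal in both organs was found for a minority of the members. At or above percentile 95 of all probes were 33 members in liver and 15 in kidney, and 9 of these were the same members. The percentile was taken over all probes, so their share above it is fixed and the same in each organ. The share of all probes above it in both organs at once is not given. The 9 had liver levels of 5.38 to 10.94 and kidney levels of 5.43 to 9.10. Among them 5 were higher in liver, 2 higher in kidney and 2 were not called. The other 24 members of the liver group reached down to percentile 64.1 in kidney, and the other 6 of the kidney group to percentile 72.8 in liver.

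Replicate spread among the members was of the usual size in liver and larger in kidney. The median SD over 3 arrays was 0.34 in each organ, against 0.35 in liver and 0.23 in kidney over the 15469 probes detected in both. In kidney, 7 members (6.25%) had an SD above 1, compared with 0.737% of the probes detected in both. In liver this was 1 member (0.893%) against 2.20%. Kidney replicate 3 was the array farthest from the mean of the others for 56 of the 112 members and for 6 of the 7 with an SD above 1, and for 34.5% of the probes detected in both. The 7 were not all on one side, and among them were members with kidney replicate 3 above and below the other kidney arrays.

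Some members may stand for the same gene. Of the 111 members with a numbered probe, 8 directly follow or precede another member in probe number. Among 319 pairs of consecutive probes that the supplementary tables identify, 43 (13.5%) carry 1 symbol for both. Members with neighboring numbers are therefore not all known to be separate transcripts.

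The cell lines gave a measurement that the rule did not use. In F9, 2 of the 112 members were detected on all 3 arrays (1.79%, exact 95% binomial confidence interval 0.217% to 6.30%), in GC-1 5 (4.46%, 1.47% to 10.1%) and in GC-2 6 (5.36%, 1.99% to 11.3%). Over all probes these shares were 36.7%, 40.9% and 40.9%, and over the 15469 probes detected in liver and kidney 91.0%, 94.2% and 93.4%. At least 1 line expressed 9 members (8.04%, 3.74% to 14.7%) by this criterion, where the share over all probes was 46.4% and over those detected in liver and kidney 96.1%. Of the latter probes, 94.0% were well above background on all 9 arrays of brain, heart and testis, and the rule leaves such probes out. These shares are thus no baseline for probes restricted to few tissues. How far the rule lowered the members' share was not tested. With the strict flag no member was detected in all 3 lines, against 32.8% of all probes (upper end of the exact interval for the members 3.24%). The intervals treat members as independent draws, though the 112 are all that the rule gave and some may stand for the same gene. They cover counting error only and not the spread between cultures of a line. On none of the 9 line arrays were 89 members well above background, and a further 14 were so on some arrays but on all 3 of no line.

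The low shares were not seen for every pair of tissues. Transcripts detected in exactly 1 of the pairs of brain, heart, kidney and testis, without liver, were found in at least 1 line for 23.9% to 36.4%. For the pairs with liver the share was 15% with brain, 6.78% with testis and 0% with heart, where there were 9 transcripts. These differences between pairs were not tested. The members' share depended on the detection flag. With the less strict flag, 11.6% of the members were detected in F9, 13.4% in GC-1, 11.6% in GC-2, 21.4% in at least 1 line and 5.36% in all 3, the last above the limit given for the strict flag.

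Both members detected in F9 were absent by the flag from GC-1 and GC-2. Where a member was detected in just 1 of 2 lines compared, the direction of its difference follows in large part from that detection. This holds here and for the members below, and the adjusted p-values of such differences are no separate support. ASMM10P029415 read -0.16, -0.48 and -0.62 in F9. It lay between -5.37 and -4.71 on the 6 arrays of the other lines, 0 of which were well above background. In the organs it was abundant, at 5.34, 5.39 and 5.42 in liver and 7.51, 7.68 and 7.61 in kidney, and F9 stood far below both. ASMM10P047142 read -0.41, -0.34 and -0.84 in F9, 2.43, 2.06 and 2.13 in liver and 2.05, 2.41 and 2.68 in kidney. Its organs overlapped, and its GC-1 and GC-2 arrays lay at -4.99 or lower. The F9 level was at least 5.46-fold above GC-1 for ASMM10P029415 (Benjamini-Hochberg adjusted p = 1.35e-06 by limma) and at least 5.06-fold for ASMM10P047142 (adjusted p = 1.45e-06). Against GC-2 the bounds were 5.94-fold (Benjamini-Hochberg adjusted p = 1.06e-06 by limma) and 5.50-fold (adjusted p = 1.15e-06).

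GC-1 and GC-2 shared 4 detected members. ASMM10P033949 was the brightest of the members in a line. It read 2.60, 2.03 and 2.09 in GC-2, 0.33, -0.11 and -0.39 in GC-1 and at most -4.42 in F9. In the organs it read 1.89, 1.78 and 1.52 in liver and -1.49, -1.95 and -1.77 in kidney. GC-2 thus stood above liver on each array, and it was the 1 member of the 9 whose level in a line was above both organs. The GC-2 level was at least 25.1-fold above F9 (Benjamini-Hochberg adjusted p = 3.56e-07 by limma) and the GC-1 level at least 5.13-fold (adjusted p = 4.70e-06).

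ASMM10P004921 went the other way between these lines. It read 1.45, 1.29 and 1.28 in GC-1 and -3.02, -1.81 and -2.10 in GC-2. The GC-1 arrays were 12.6-fold above those of GC-2 on average (log2 difference -3.65 for GC-2 minus GC-1, standard error 0.35, Benjamini-Hochberg adjusted p = 0.000147 by limma) and at least 13.5-fold above F9 (adjusted p = 2.55e-06). Its liver arrays read 6.71, 6.08 and 6.06 and its kidney arrays 1.64, 2.02 and 2.69. The GC-1 level was below every kidney array.

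ASMM10P006824 read 1.31, 1.60 and 1.56 in GC-2 and -1.24, -1.71 and -1.69 in GC-1. GC-2 was higher by 3.04 (standard error 0.32, Benjamini-Hochberg adjusted p = 0.000220 by limma) and at least 14.99-fold above F9 (adjusted p = 1.42e-06). Its liver arrays, at 2.71, 3.50 and 3.44, and its kidney arrays, at 2.89, 2.91 and 3.78, overlapped.

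ASMM10P005346 was detected in GC-2 at 0.69, 0.78 and 0.91. In GC-1 it was at -2.58 ± 0.57 (SD, n = 3), below each GC-2 array, and was well above background on 1 array. GC-2 was at least 9.52-fold higher (Benjamini-Hochberg adjusted p = 0.000201 by limma). The organs overlapped for this member too, at 2.28 to 2.87 in liver and 2.36 to 3.02 in kidney.

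The remaining 3 of the 9 were dim in the organs and in the lines. The one with the widest spread among F9 arrays, ASMM10P039803, was chosen for mention after its values were seen, since 1 array decided its place. Besides both GC lines it was well above background on F9 replicates 2 and 3, at -1.88 and -1.93, but read -4.89 on F9 replicate 1. Without that array it would count as detected in all 3 lines.

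**Figure D4:**
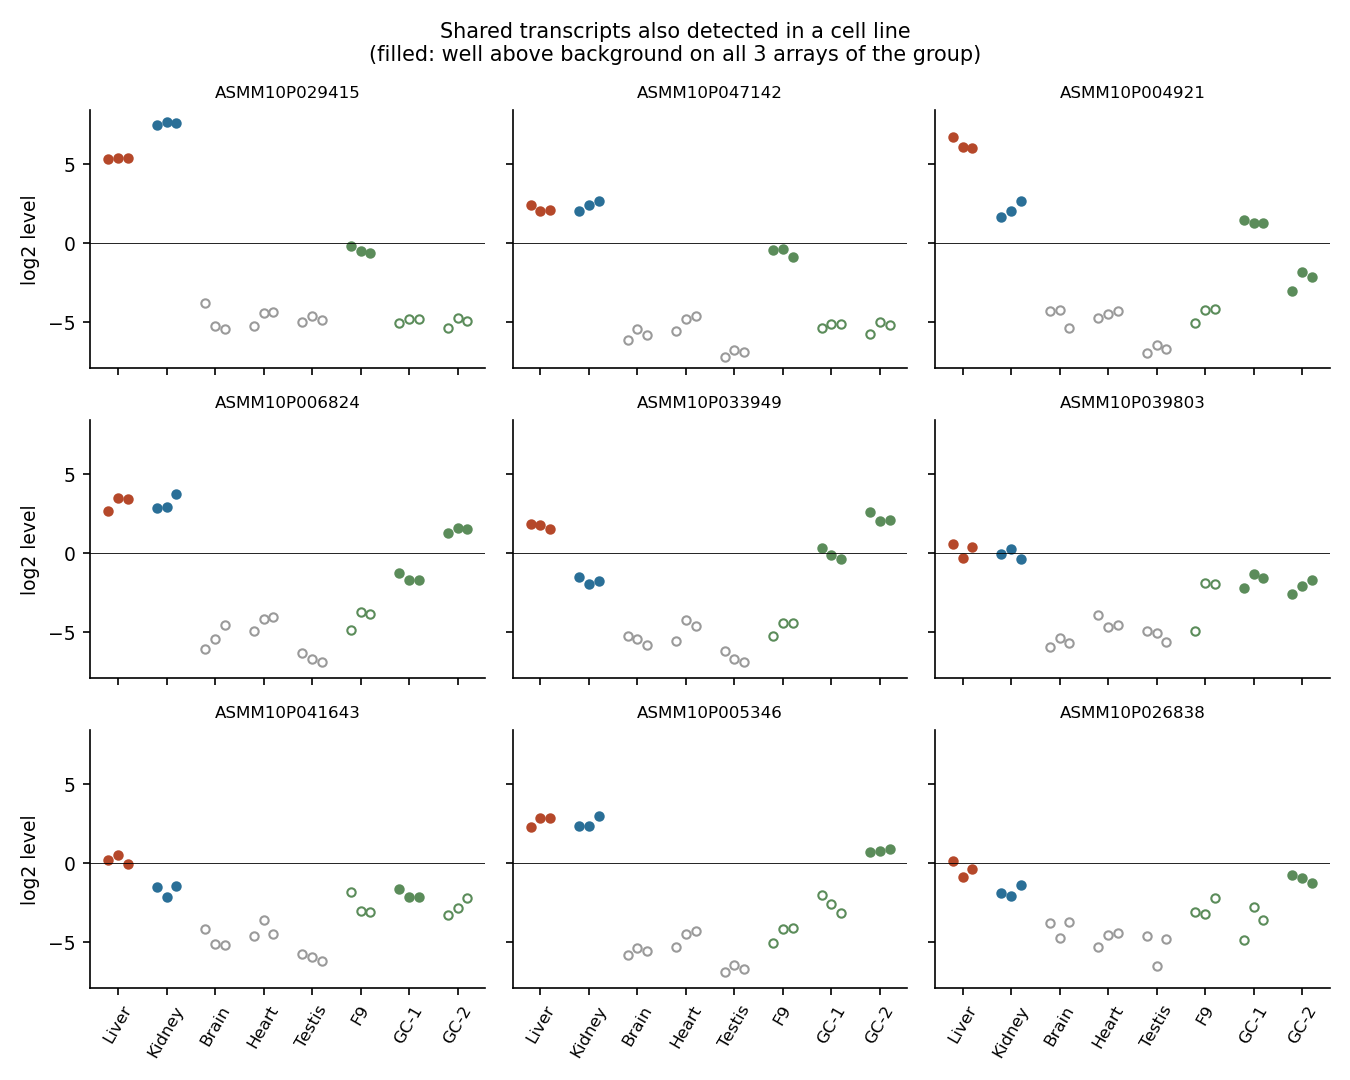
Log2 levels on the 24 arrays of the 9 members detected in at least 1 cell line, 1 panel per probe and 1 point per array, with filled points where all 3 arrays of the group were well above background. The 2 members detected in F9 are open in GC-1 and GC-2, and ASMM10P033949 reads higher in GC-2, at 2.03 to 2.60, than in liver and kidney.

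Differences between the lines were read only for members detected in at least 1 of the 2 lines compared. A member detected in just 1 of the 2 passes this filter through the line where it is high. Its direction, here and in the named differences above, therefore follows in large part from the filter. The share over all probes under the same filter is not given. A fit of only the 29578 probes well above background on 3 or more line arrays, a different filter, called 23.2% higher in GC-1 and 25.2% in F9. For GC-2 against F9 it was 22.6% and 24.6%, and for GC-2 against GC-1 11.3% each way. In GC-1 against F9, 7 members were detected in at least 1 of the 2 lines, of which 3 were called higher in GC-1 and 2 higher in F9. In GC-2 against F9, 5 of 8 were called higher in GC-2 and 2 higher in F9, and in GC-2 against GC-1, 4 of 7 were called higher in GC-2 and 1 higher in GC-1. Over all 112 members the calls toward the first line of each pair named here were 4, 7 and 4 (3.57%, 6.25% and 3.57%), against 10.5%, 9.89% and 4.22% over all probes. Toward the other line they were 8, 10 and 1 (7.14%, 8.93% and 0.893%), against 12.9%, 13.4% and 5.00%. These counts include members at background in both lines, and the order against all probes was not stable. With the slide as a block, 62 members (55.4%) were called higher in F9 than in GC-2, against 39.9% of all probes, and without F9 replicate 1 it was 66 (58.9%) against 40.6%. Without F9 replicate 1, 71 members were called between GC-2 and F9 instead of 17, and 20 between GC-1 and F9 instead of 12, but the calls among detected members stayed between 6 and 7 and between 5 and 6 with each array left out. The bounds between lines hold for the processed signal only. Under a normexp background correction, which adds an offset to every signal, the 8 named differences against F9 kept their calls with fitted folds of 2.34 to 8.53, each below its bound given above. Between GC-2 and GC-1, ASMM10P005346 kept its call at 2.95-fold, also below its bound. ASMM10P004921 and ASMM10P006824 kept theirs at 4.08-fold and 3.98-fold.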

How the data were processed

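Per the file headers, the authors quantified each Cy3 array with Feature Extraction 11.5.1.1 and deposited 1 file per array. The intensity used was the processed signal, deposited after background subtraction and detrending and not normalized between arrays, and the flags beside it. The deposited series table holds the same intensities (largest relative difference 0.000228) and served as an alternative. Its normalization in GeneSpring was not repeated. Control spots were left out, log2 intensities were taken, and each array's 75th percentile over 60804 probes was subtracted.

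Groups came from the labels. No member was saturated or an outlier spot on any array. Liver against kidney was fitted on 6 arrays and line against line on 9, with limma 3.58.1 (lmFit, eBayes) in R 4.3.3 and Benjamini-Hochberg adjustment over all probes, without covariates. Other flags, scalings, background corrections, filters, blocks and left-out arrays were tried as alternatives. The p-values measure the spread between 3 arrays per group, and that number limits the precision. Same-numbered line arrays deviated together (r above 0.1) in each pair of F9 with GC-1 and of GC-1 with GC-2, as judged from the data, and the fit with the replicate number as a block moved no total of member calls by over 1.5 times, though 17 instead of 10 members were higher in F9 than in GC-2. Probes were named by the largest called differences with non-overlapping arrays, 2 in each direction per comparison. Where a line was not well above background, "at least" folds put the lowest such signal of its arrays in place of lower ones.

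The members and the gene lists were chosen with earlier results of these data known. The 7 pathway lists (68 genes) could not be followed, since no member has a gene name, and no sequence is shown for the same reason. On simulated data for liver against kidney over 60804 probes, 69.0% of 100 changes of 3 and 11.0% of 100 changes of 1.5 on the log2 scale were recovered. Only these probes differed in the simulation, while in the data 48.0% of all probes were called toward liver and 11.5% toward kidney. The adjustment is stricter where few probes differ. The recovered shares therefore do not give the share of changes found in the data. Figures were drawn with Python 3.11.15 and matplotlib 3.10.9.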

Additional observations from a re-analysis of the deposited data

How the results depend on the processing

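The number of members depended on the flag. With the less strict flag in place of the strict one it was 34, of which 21 were among the 112, and with 1 common log2 level of -2.96 on all arrays it was 244, of which 105 were. With each tissue array left out it was 112 to 126. The shares of members detected in F9, GC-1, GC-2, at least 1 and all 3 lines were 11.6%, 13.4%, 11.6%, 21.4% and 5.36% with the less strict flag. They were 10.2% in F9, 12.7% in GC-1, 19.7% in at least 1 and 4.10% in all 3 with the common level. The shares of all probes under these 2 settings are not given. With each line array left out the members' shares, in the order above, were 1.79% to 2.68%, 4.46%, 5.36% to 6.25%, 8.04% to 8.93% and 0% to 0.893%. Liver against kidney, without scaling, gave 41 members higher in liver, 27 and 16 at least 5-fold toward liver and kidney, and a median of 0.31. Normexp, run on the median signal and chosen after the data were seen because the files used here hold no mean signal for the planned version, gave 27 at least 5-fold toward liver and a median of 0.59. With each array left out, 59 to 62 members were higher in liver and 17 to 19 in kidney, 39 to 42 and 6 at least 5-fold, and the median was 1.22 to 1.48. Between GC-2 and F9, 39 members were called with normexp, 7 among probes well above background on 3 or more arrays, 69 with the slide as a block, 7 with the methods' t-test and 10 to 71 with each array left out (10 without GC-2 replicate 3). Between GC-1 and F9, 6 were called among those probes and 10 to 20 with each array left out, and between GC-2 and GC-1, 5 to 7. The causes were not tested, apart from the filter, which leaves 9 members to test. Same-numbered arrays of liver and kidney deviated from their group means with an r of -0.07 over probes in each pair, so the numbers were not taken to pair these samples. Those of the lines did so with r between 0.11 and 0.29 for F9 with GC-1 and for GC-1 with GC-2, and 0.07 for 1 pair of F9 with GC-2, and the replicate 1 arrays shared 1 slide, so that number and slide coincide in part. Line arrays on the same slide with different numbers had r between 0.05 and 0.15. All pairs of line arrays on different slides had a negative r. This follows in large part from the positive r within slides, since deviations from a group mean cancel out within the group. The parts of slide and number were not tested. With the replicate block, 61 members were higher in liver and 20 in kidney, 15 were called between GC-1 and F9, 24 between GC-2 and F9 and 5 between GC-2 and GC-1. The slide block gave 62 and 20 for the organs. Of 237 values of these results under the alternatives, 212 stayed within 1.5 times the count or within the error, and all 240 values of the named probes kept their direction and their call.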
